A study of Mus musculus with 6 samples.

Results

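Cytoplasmic dynein 1 is the motor that carries cargo towards the minus ends of microtubules. Its heavy chain holds the ATPase ring that walks, intermediate chains bind the heavy chain and dynactin, light intermediate chains bind cargo adaptors, and the light chains of the Tctex, LC8 and roadblock families dock on the intermediate chains. In dividing lymphoid cells the motor positions the spindle and centrosome and moves endosomes and other organelles, and LC8 also binds many proteins that are no part of the motor. The data described here cover 8 genes of these chains, out of 18193 genes with a probe set of their own on the arrays: Dynlt3, Dynll1, Dynll2, Dynlrb1, Dync1i2, Dync1li1, Dync1li2 and Dync1h1. Their 17 probe sets are all those that the platform annotation assigns to 1 of these symbols alone, and no probe set names a member beside another gene. The family was chosen by a measured value, the large difference at Dynlt3 between the 2 groups described next, so the values of the members in that comparison are given as a description and support nothing further.

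The arrays hold RNA of BALB/c mouse leukaemia cells driven by BCR-ABL1, the fusion kinase of Philadelphia chromosome-positive acute lymphoblastic leukaemia. In 3 arrays the leukaemia has the genotype AID-/-, and in 3 arrays it has the genotype AID+/+. BCR-ABL1 is shared by both groups, and neither the way it was introduced nor the age of the animals is given in the labels. The labels call the arrays biological replicates without saying whether each stands for its own mouse, and the tests rest on the variation among these arrays alone, which may be technical. In bulk RNA, fewer cells that express a gene and less RNA per cell cannot be told apart.

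All values are log2 expression values as deposited, with array medians of 4.85 to 4.90, and differences are AID-/- minus AID+/+ on that scale. B-lineage markers were bright in both groups, with group means of 7.55 to 13.19 for 6 measured genes in AID-/- arrays and 7.92 to 13.14 in AID+/+ arrays, and in limma none of the 6 passed the adjusted threshold or an unadjusted p of 0.05. The measured markers of T cells, erythroid cells and stroma or endothelium also passed neither, and their group means were lower, at 2.67 to 6.93. Among the 6 myeloid markers, the lysozyme gene Lyz2 passed (0.76 higher, SE 0.21, adjusted p = 0.0436), a call that was lost without any array other than AID-/- replicate 3 (adjusted p up to 0.135). Of the 6, 2 differed upwards and 4 downwards, and 3 had an unadjusted limma p under 0.05. Itgam differed by 1.06, with 4.03, 3.64 and 5.54 on AID-/- arrays and 3.58, 3.16 and 3.31 on AID+/+ arrays. Csf1r differed by -0.30. The groups did not overlap at either gene, though AID-/- replicate 3 stood apart at Itgam. Mpo (-0.41), Cd14 (-0.20) and Elane (-0.12) had overlapping groups. The summed myeloid marker signal was 7.31 to 7.59 (log2) in AID-/- arrays and 7.11 to 7.43 in AID+/+ arrays, and its part in the results below was not tested. The groups also differ in sex-linked transcripts: the Y-linked Kdm5d was at 7.62 to 7.74 in AID-/- arrays and 2.42 to 2.68 in AID+/+ arrays, and Xist, the RNA of the inactive X chromosome, was at 4.35 to 6.02 in AID-/- arrays and 11.93 to 12.18 in AID+/+ arrays. Sex and genotype therefore cannot be told apart in any difference given here.

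The dynein chains did not move as a block. The Tctex-type light chain gene Dynlt3 was bright on every AID-/- array and below the array median on every AID+/+ array, at each of its 4 probe sets. The LC8 genes Dynll1 and Dynll2 and the roadblock gene Dynlrb1 were higher in AID-/- leukaemia by less than 1 log2 unit, and not at all of their probe sets. The intermediate, light intermediate and heavy chains that form the body of the motor had no probe set past the adjusted threshold, and 1 of their 6 had an unadjusted limma p under 0.05. In a limma fit over all 45037 probe sets, at a Benjamini-Hochberg adjusted p under 0.05, 8 of the 17 member probe sets were called, all of them higher. Over all probe sets 14.6% were called, 7.24% higher and 7.39% lower. Since the family was chosen on this comparison, nothing is read from that count. The median difference was 0.31 over the 17 probe sets and 0.18 over the 13 that are not Dynlt3, against -0.04 over all probe sets.

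**Figure D1:**
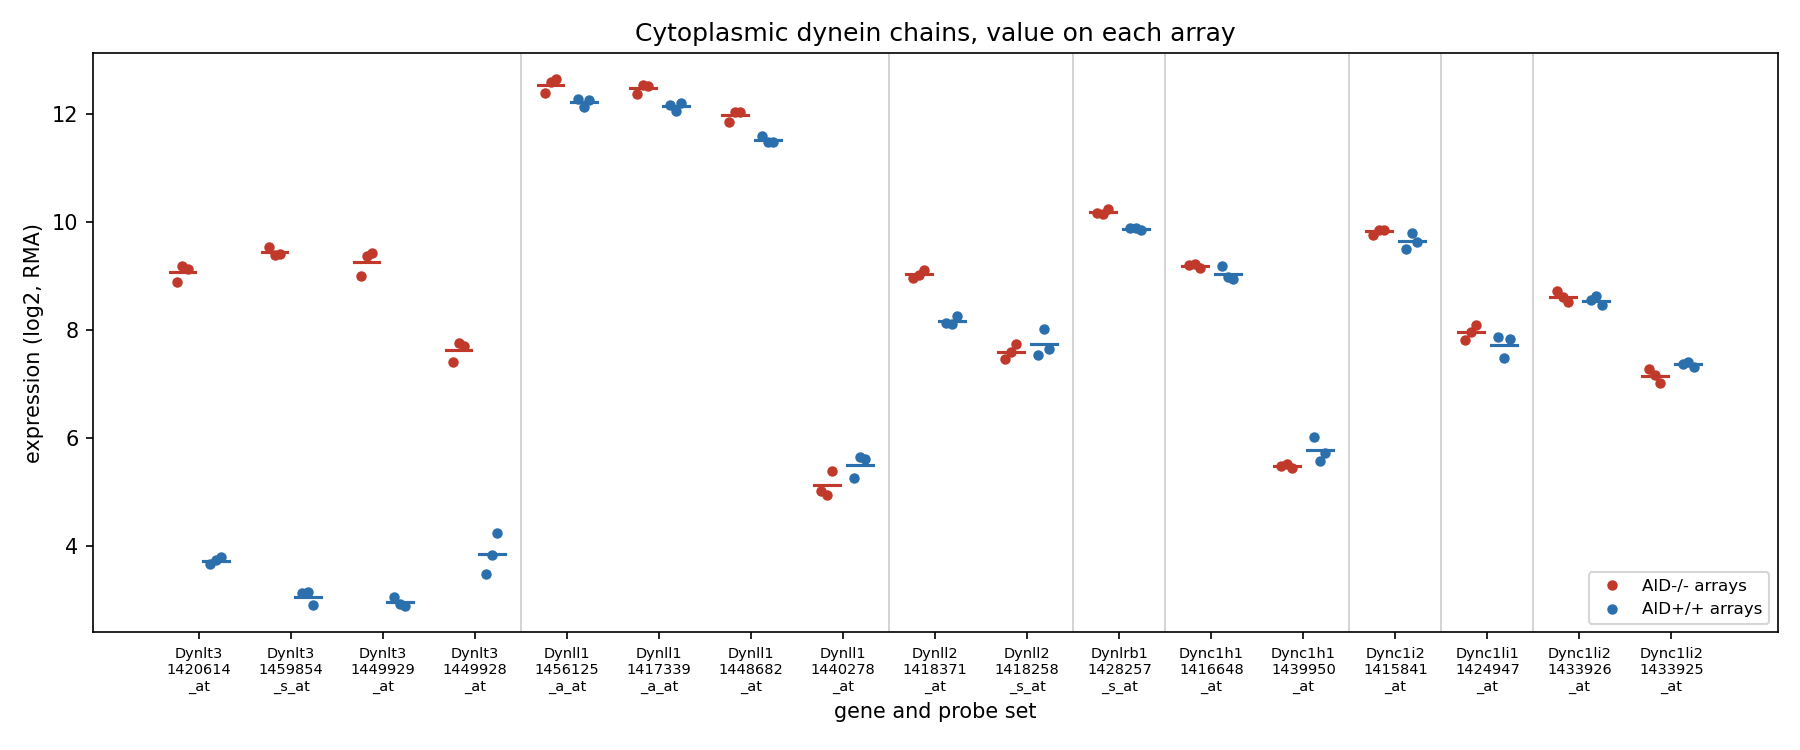
Expression of each member probe set on each array. The vertical axis is the log2 RMA value, points are single arrays (red AID-/-, blue AID+/+), and short lines are means of 3 arrays. The 4 Dynlt3 probe sets lie between 7.41 and 9.54 on AID-/- arrays and between 2.89 and 4.24 on AID+/+ arrays. At the other probe sets the group means differ by -0.38 to 0.87.

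Dynlt3 encodes a Tctex-type light chain, which sits on the intermediate chain in the place that the related Dynlt1 proteins can also take, and it lies on the X chromosome. At its probe set with the highest mean, 1420614_at, the values were 8.90, 9.19 and 9.14 on AID-/- arrays and 3.67, 3.74 and 3.80 on AID+/+ arrays. The arrays of each group lay close together and the groups far apart. The difference was 5.34 (SE 0.11), or 40.5-fold.

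The other Dynlt3 probe sets showed the same pattern with different sizes. Probe set 1459854_s_at read 9.54, 9.38 and 9.41 on AID-/- arrays and 3.13, 3.16 and 2.91 on AID+/+ arrays, a difference of 6.38 (SE 0.10). Probe set 1449929_at read 9.0, 9.37 and 9.43 on AID-/- arrays and 3.06, 2.93 and 2.89 on AID+/+ arrays, a difference of 6.31 (SE 0.13). At all 3 of these probe sets the groups were far apart, with every AID-/- array near 9 and every AID+/+ array under 4. The fourth, 1449928_at, was dimmer in AID-/- leukaemia, at 7.41, 7.77 and 7.71, and read 3.49, 3.83 and 4.24 on AID+/+ arrays, a difference of 3.78 (SE 0.19).

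The AID+/+ means of the 4 Dynlt3 probe sets lay at percentiles 9.59 to 32.9 of all probe set means of that group, and the AID-/- means at percentiles 76.4 to 90.7. No detection calls were used, so the AID+/+ values cannot be called absent, and differences against values so low on the scale are approximate in size. AID-/- replicate 1 was the lowest AID-/- array at 3 of the 4 probe sets and the highest at 1459854_s_at. Leaving out any 1 array moved the difference at 1420614_at only between 5.28 and 5.43.

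The sequences before the start sites of Dynlt3 and of Dynll1 are shown to set the gene with the large difference beside a light chain gene that was bright in both groups. They are the 250 bases upstream of the annotated start, from RefSeq on GRCm38.p6, with the last base next to the start, at chrX:9662984-9663233 and chr5:115300991-115301240, both on the minus strand. Capitals mark matches, on either strand, to the GC box GGGCGG and to the CCAAT box.
Dynlt3: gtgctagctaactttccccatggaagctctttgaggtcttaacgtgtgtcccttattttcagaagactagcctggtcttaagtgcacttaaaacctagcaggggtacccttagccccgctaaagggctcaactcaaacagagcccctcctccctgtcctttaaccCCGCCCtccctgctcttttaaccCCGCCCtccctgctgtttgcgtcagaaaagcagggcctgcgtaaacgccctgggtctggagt
Dynll1: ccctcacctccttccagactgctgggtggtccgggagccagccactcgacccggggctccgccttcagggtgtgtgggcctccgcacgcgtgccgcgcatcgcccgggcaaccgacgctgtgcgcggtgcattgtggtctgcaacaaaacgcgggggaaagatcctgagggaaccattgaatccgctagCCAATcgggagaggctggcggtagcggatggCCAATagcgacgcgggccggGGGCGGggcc

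The Dynlt3 window held 2 GC boxes and no CCAAT box, and the Dynll1 window held 1 GC box and 2 CCAAT boxes. Of 32851 such windows in the table, 32.7% held a GC box and 33.8% a CCAAT box, so neither motif is rare. Neither window held TATAAA, which 12.4% of windows did. Windows were found for 6 of the 8 members, all but Dynll2 and Dync1li2. These are matches of letters and were not set against binding data.

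Dynll1 encodes LC8, a small dimeric hub protein that docks on the intermediate chain and on many other partners, among them the BCL2-family protein BIM. Its 3 bright probe sets were slightly higher in AID-/- leukaemia. Probe set 1448682_at read 11.86, 12.03 and 12.04 on AID-/- arrays and 11.59, 11.48 and 11.48 on AID+/+ arrays, a difference of 0.46 (SE 0.09). Probe set 1417339_a_at read 12.37, 12.53 and 12.52 on AID-/- arrays and 12.17, 12.05 and 12.20 on AID+/+ arrays, a difference of 0.34 (SE 0.09). The groups did not overlap at either, nor at 1456125_a_at, which differed by 0.33 (SE 0.10) without passing the threshold (limma adjusted p = 0.0681). That probe set passed without AID-/- replicate 1 (adjusted p = 0.0386) and under 3 other alternatives.

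The Dynll1 calls were close to the threshold. The limma adjusted p of 1417339_a_at was 0.04999, and the call was lost without any single array other than AID-/- replicate 1 (adjusted p of 0.0963 to 0.152). That of 1448682_at was lost without AID-/- replicate 3 or AID+/+ replicates 2 or 3 (adjusted p of 0.0505 to 0.0576), with differences of 0.43 to 0.44. The fourth Dynll1 probe set, 1440278_at, was dimmer than the others, at means of 5.13 in AID-/- and 5.51 in AID+/+ leukaemia. Its groups overlapped, and it differed by -0.38 (SE 0.15, 95% interval -0.73 to -0.03) without passing the adjusted threshold.

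Dynll2, the second LC8 gene, gave readings that disagreed between its probe sets. Probe set 1418371_at read 8.97, 9.03 and 9.12 on AID-/- arrays and 8.14, 8.12 and 8.25 on AID+/+ arrays. All AID-/- arrays lay above all AID+/+ arrays, and the difference was 0.87 (SE 0.09), or 1.82-fold. Probe set 1418258_s_at read 7.46, 7.59 and 7.75 on AID-/- arrays and 7.55, 8.03 and 7.66 on AID+/+ arrays, a difference of -0.14 (SE 0.14) with overlapping groups. Whether the 2 probe sets read different transcripts of the gene was not tested. The call at 1418371_at held under all 12 alternatives tried for it, with differences of 0.83 to 0.91.

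Dynlrb1 encodes the roadblock light chain, which binds the intermediate chain as a dimer. Its only probe set, 1428257_s_at, read 10.18, 10.16 and 10.25 on AID-/- arrays and 9.89, 9.90 and 9.85 on AID+/+ arrays. The groups did not overlap, and the difference of 0.31 (SE 0.08), or 1.24-fold, was called. The call was lost when any 1 array was left out (adjusted p of 0.0708 to 0.129), while the difference stayed between 0.29 and 0.33. This probe set varied very little within groups: its within-group SD of 0.04 was at percentile 1.79 of all probe sets.

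Dync1i2 encodes the intermediate chain that links the light chains to the heavy chain. It read 9.77, 9.86 and 9.85 on AID-/- arrays and 9.51, 9.81 and 9.64 on AID+/+ arrays. The groups overlapped, and the difference of 0.18 had a 95% interval of -0.06 to 0.41. Dync1li1, a light intermediate chain, read 7.81 to 8.10 on AID-/- arrays and 7.49 to 7.87 on AID+/+ arrays, and its difference of 0.23 had an interval of -0.07 to 0.52. The intervals of both genes include 0 and leave room for rises of about the size seen at Dynll1.

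Dync1li2, the other light intermediate chain, differed by 0.07 (95% interval -0.15 to 0.29) at 1433926_at and by -0.21 (-0.44 to 0.01) at 1433925_at. The heavy chain gene Dync1h1 read 9.21, 9.22 and 9.16 on AID-/- arrays and 9.19, 8.99 and 8.95 on AID+/+ arrays at 1416648_at, a difference of 0.15 (95% interval -0.07 to 0.37). Its second probe set, 1439950_at, read 5.48, 5.53 and 5.45 on AID-/- arrays and 6.02, 5.58 and 5.73 on AID+/+ arrays, a difference of -0.29 (95% interval -0.57 to -0.01) that did not pass the threshold after adjustment. The groups did not overlap at that probe set or at 1433925_at, with AID-/- arrays lower at both. In all, the groups did not overlap at 11 of the 17 member probe sets, 9 with AID-/- arrays above and 2 with them below. They did not overlap at 32.9% of all probe sets. The count of members includes the Dynlt3 probe sets, on which the family was chosen, so nothing is read from it.

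**Figure D2:**
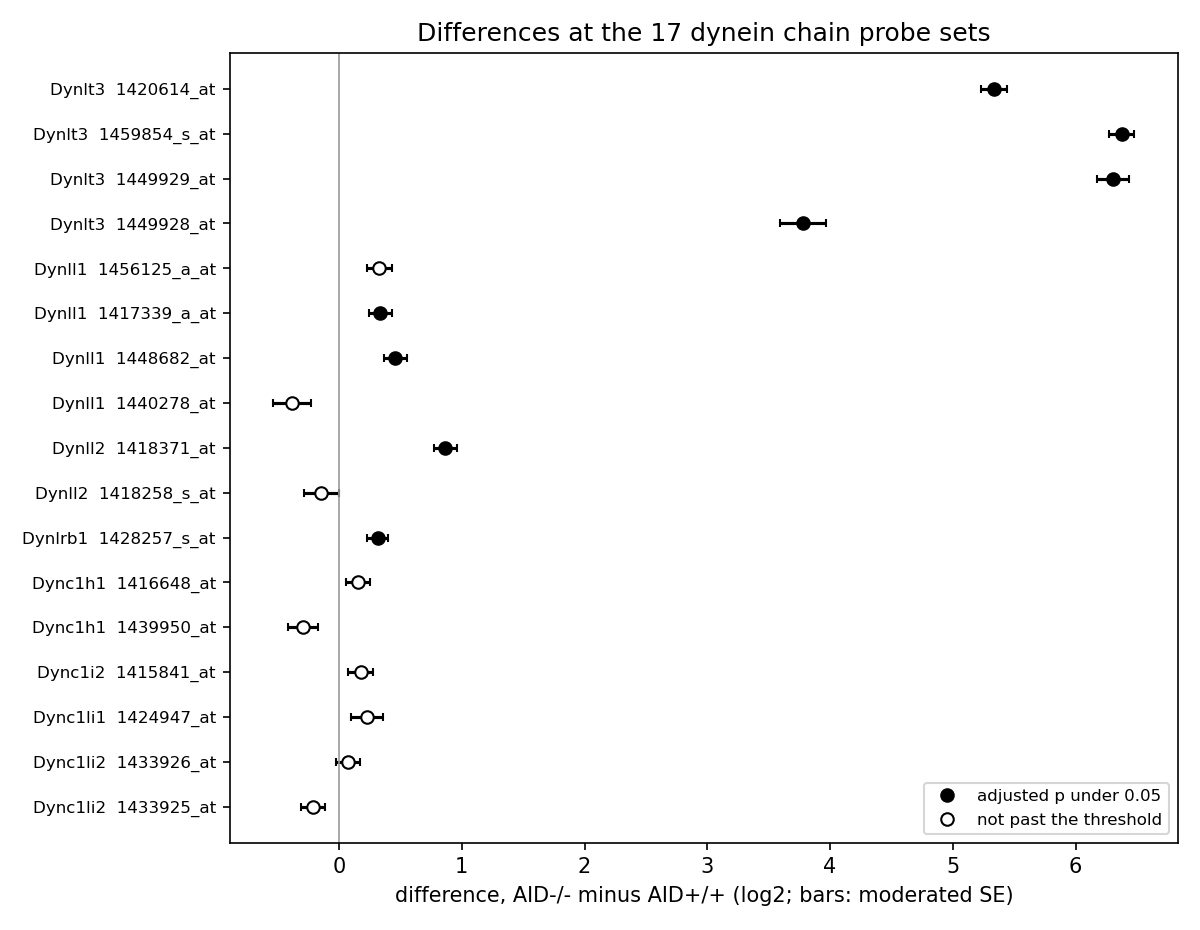
Difference at each member probe set. The horizontal axis is AID-/- minus AID+/+ in log2 units, bars are moderated standard errors, and filled points passed an adjusted p of 0.05 in the fit over all probe sets. Dynlt3 lies between 3.78 and 6.38, and the other 13 probe sets lie between -0.38 and 0.87.

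Because Dynlt3 is X-linked and the groups differ in sex-linked transcripts, the measured genes next to it were examined. Of the 5 on each side, 2 were called, and both were higher in AID-/- leukaemia. Cybb, which encodes the catalytic subunit of the phagocyte NADPH oxidase and is the nearest measured neighbour on one side, read 6.07, 6.51 and 6.91 on AID-/- arrays and 3.86, 3.69 and 3.50 on AID+/+ arrays. The difference was 2.81 (limma adjusted p = 8.69e-05), and its other 2 probe sets were higher by 1.34 and 1.32. Rpgr, a protein of the ciliary base and the fourth measured gene on the other side, read 6.55, 6.09 and 6.65 on AID-/- arrays and 2.93, 2.81 and 2.82 on AID+/+ arrays, a difference of 3.58 (adjusted p = 4.75e-06).

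The remaining 8 neighbours, B630019K06Rik, 4930402K13Rik, Lancl3, Xk, H2ap, H2al3, Srpx and Otc, had group means of 2.46 to 3.90 in either group, and none was called or had an unadjusted limma p under 0.05. The 2 called neighbours are not adjacent to each other, with Dynlt3, H2ap, H2al3 and Srpx in between. Over the whole X chromosome 17.2% of 617 genes were called, against 18.5% of all genes, with 47 higher, 59 lower and a median difference of -0.03.

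**Figure D3:**
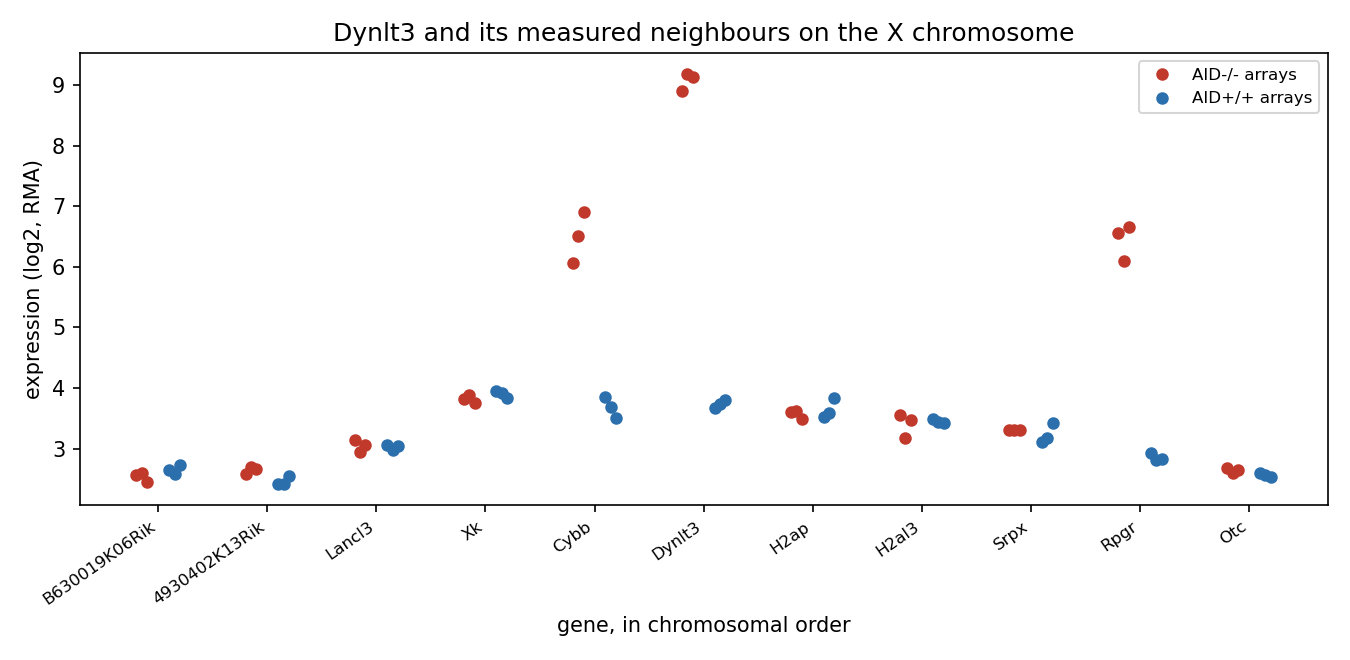
Dynlt3 and the 5 measured genes on each side of it on the X chromosome, in chromosomal order. The vertical axis is the log2 RMA value at the brightest probe set of each gene, and points are single arrays (red AID-/-, blue AID+/+). Cybb, Dynlt3 and Rpgr are high on all 3 AID-/- arrays, and the other 8 genes lie low in both groups.

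The genes whose 6-array profile was most like that of Dynlt3 at 1420614_at, by the smallest root mean square difference after centring each gene on its own mean, were Kdm5d (0.18), Slc25a24 (0.21), Smad1 (0.30), Tmem126a (0.30) and Retreg1 (0.30). Pearson's r with Dynlt3 over the 6 arrays was 0.994 to 0.999, which describes arrays that fall into 2 groups. Each profile is that of the brightest probe set of the gene. Other probe sets differed by less at Kdm5d (0.42 and 1.02), Slc25a24 (2.99) and Retreg1 (1.98), and those of Smad1 differed by 4.95 and 5.90. Kdm5d is Y-linked, and the 4 others are autosomal, on chromosomes 3, 8, 7 and 15 in the order named. Kdm5d encodes a histone demethylase, Slc25a24 a mitochondrial carrier, Smad1 a BMP signal transducer and Retreg1 an autophagy receptor on the endoplasmic reticulum.

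The rest of the dynein pathway was read from 9 lists of genes grouped by function, using the brightest probe set of each gene and a fit over 18193 genes. Of 76 measured genes 11 rose, 6 fell and 59 missed the threshold, so 22.4% were called, against 18.5% of all genes, 10.1% higher and 8.42% lower. The median difference was 0.02 over the 76 genes and -0.03 over all genes. The counts of single lists below stand beside the same shares of all genes, and nothing is read from them. Without AID+/+ replicate 2 the number called was 10, and without AID+/+ replicate 3 it was 11.

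Among other chains of dynein 1, 1 of 3 measured genes was called. Dynlt1f, one of the near-identical Dynlt1 copies of the mouse, was 0.88 higher (SE 0.16, adjusted p = 0.00709) at a probe set that may also bind RNA of the other copies, and it was not called without variance moderation (adjusted p = 0.075). A further 3 probe sets are annotated to several Dynlt1 copies at once and are assigned to no gene here. They differed by 0.68, 0.84 and -0.23, the groups did not overlap at any of them, and the first 2 were called. Dynlrb2 and the intermediate chain gene Dync1i1, which is used mainly in neurons, had group means of 2.88 to 3.69 and were not called.

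The largest difference in the pathway outside the 8 members was at Tctex1d2, also known as Dynlt2b, a Tctex-type light chain of dynein 2, the motor of intraflagellar transport in cilia. It read 3.57 higher (SE 0.21, adjusted p = 2.87e-05), with means of 8.16 in AID-/- leukaemia and 4.59 in AID+/+ leukaemia, and its second probe set was 4.63 higher. The dynein 2 heavy chain gene Dync2h1 was lower, with a difference of -0.44 (SE 0.09, adjusted p = 0.0134). Wdr60, an intermediate chain of dynein 2, was 0.38 higher (adjusted p = 0.0411), a call lost without any array other than AID-/- replicate 2 (adjusted p up to 0.137). Dync2li1 and Wdr34, the remaining 2 of 5 chains, were not called.

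Dynactin is the complex that dynein 1 needs to move over long distances. Of 10 measured subunit genes 3 were called, all higher. Capzb, the beta subunit of the actin capping protein that closes one end of the dynactin filament, was 1.05 higher (SE 0.13, adjusted p = 0.00136), and 2 of its other 3 probe sets were called higher as well. Dctn5, a subunit of the pointed-end complex, was 0.69 higher (SE 0.11, adjusted p = 0.00375) and was called at its other probe set too. Capza2, the alpha partner of Capzb, was 0.30 higher (adjusted p = 0.0411), a call lost without any single array (adjusted p up to 0.113). The capping protein also works on ordinary actin filaments, so these genes are not specific to dynein.

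Activating adaptors tether cargo to dynein and dynactin. Of 19 measured adaptor genes 2 rose, 4 fell and 13 missed the threshold. Ninl, a centrosomal adaptor, was 1.95 higher (SE 0.15, adjusted p = 0.000144), at means of 4.50 in AID-/- and 2.55 in AID+/+ leukaemia. Both means lay below the array medians, and the only Ninl probe set was removed when dim probe sets were left out. Nin, which encodes the related ninein, was 0.88 higher (SE 0.10, adjusted p = 0.000966). Spag9, a scaffold of JNK signalling that binds the motor, differed by -0.60 (SE 0.10, adjusted p = 0.00578), and Rab11fip3, an adaptor of recycling endosomes, by -0.74 (SE 0.15, adjusted p = 0.0122) at 1 of its 2 probe sets. The Rab11fip3 call and that of others were lost without AID+/+ replicate 3, which left 3 adaptor genes called (Rab11fip3 adjusted p = 0.0558). Hook3 and Ccdc88a, named after their values were seen, were the other lower genes, at -0.43 and -0.41. Each was called lower at its brightest probe set alone: the other 3 of Hook3 differed by -0.25, -0.05 and 0.40, the last called higher, and the other 2 of Ccdc88a by -0.16 and -0.07.

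None of the 7 genes of the LIS1 and NDE1 group, which includes genes of the NUDC family, was called, and 2 had an unadjusted limma p under 0.05. Nudcd3, a chaperone partner of the intermediate chain, came closest, at 0.29 higher (adjusted p = 0.0676). It passed without AID-/- replicate 1 (limma adjusted p = 0.0497), under median centring (0.043) and with dim probe sets left out (0.046). Among 7 genes that bring dynein to kinetochores and the cell cortex in mitosis, Kntc1, a subunit of the RZZ complex, was lower with a difference of -0.29 (adjusted p = 0.0468), a call lost without any single array (adjusted p up to 0.14). The group median was -0.08.

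Of 7 measured partners of the light chains, 2 were called (28.6%, against 18.5% of all genes). They are Bmf and Bcl2l11, the only genes of BH3-only death proteins on this list. Bmf, whose product binds the Dynll2 light chain, was 0.80 higher (SE 0.17, adjusted p = 0.0136), but only at 1 of its 3 probe sets, and the call was lost without AID+/+ replicate 2 (adjusted p = 0.0531). Bcl2l11, which encodes the LC8 partner BIM, was 0.73 higher (SE 0.18, adjusted p = 0.024), and 4 of its 5 probe sets were called higher in the fit over probe sets. At its brightest probe set that call was lost without AID-/- replicates 2 or 3 or AID+/+ replicates 1 or 2 (adjusted p of 0.0544 to 0.0699). Without AID+/+ replicate 2 neither of the 2 genes was called. Atmin, a transcription factor that drives Dynll1, read 7.37, 7.14 and 7.26 on AID-/- arrays and 7.21, 7.29 and 7.35 on AID+/+ arrays, with overlapping groups, and was named after its values were seen.

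Axonemal dyneins, the motors of beating cilia, included 13 measured genes, of which none was called or had an unadjusted limma p under 0.05. Dnah12 had the smallest p, with a difference of 0.18 (adjusted p = 0.195), and 1 gene of the list was called without AID-/- replicate 3. Kinesin 1, the motor that runs the other way along microtubules, had 1 of 6 measured genes called: the light chain gene Klc1 was 0.50 higher (SE 0.09, adjusted p = 0.00892), and all 3 of its probe sets were called higher. The heavy chain gene Kif5b, named after its values were seen, was not called at its brightest probe set (-0.15), but all 6 of its probe sets differed downwards, by -0.15 to -0.54, and 2 were called lower in the fit over probe sets. The list had 2 genes called without AID-/- replicate 3 and with probe sets averaged.

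**Figure D4:**
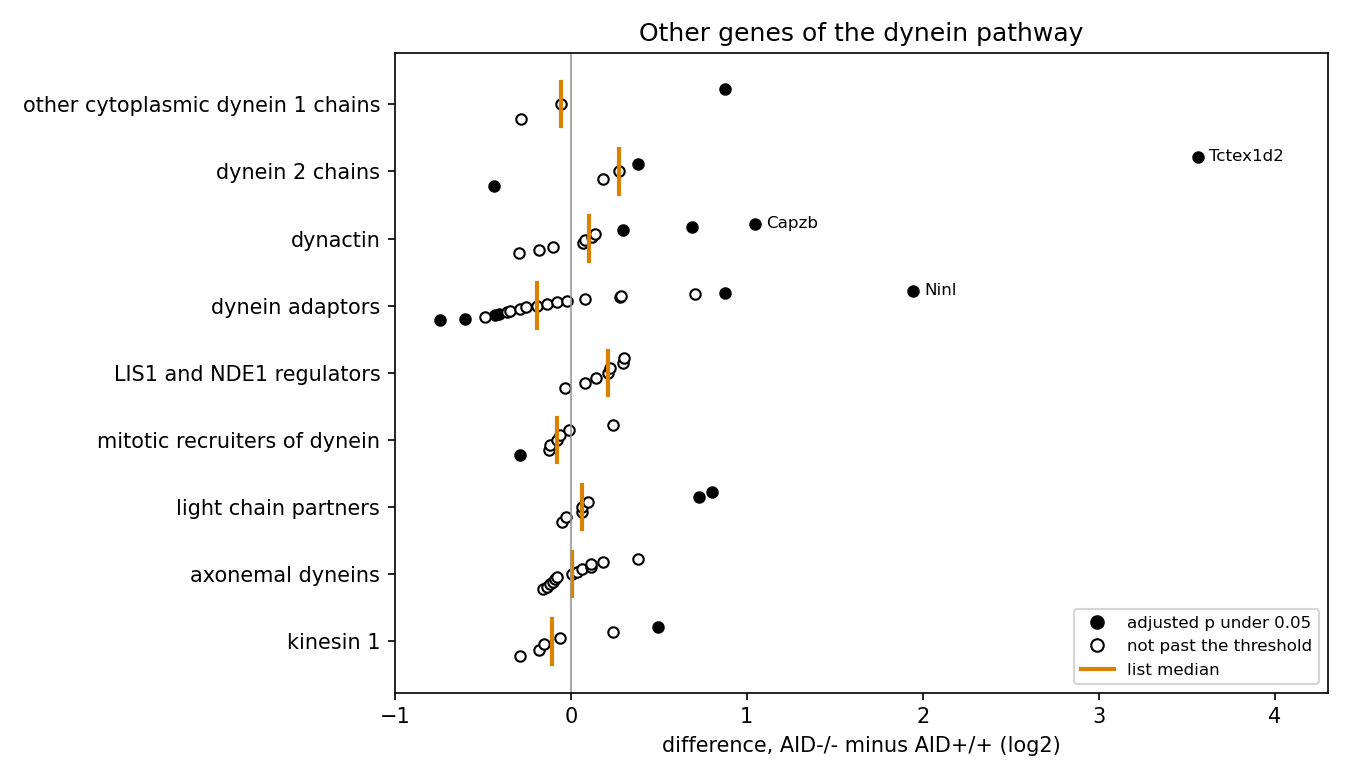
Differences of the other dynein pathway genes by list. The horizontal axis is AID-/- minus AID+/+ in log2 units at the brightest probe set of each gene, filled points passed an adjusted p of 0.05 over 18193 genes, and orange lines are list medians. Tctex1d2 (3.57), Ninl (1.95) and Capzb (1.05) are the genes beyond 1 log2 unit, and list medians lie between -0.19 and 0.28.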

How the data were processed

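Leukaemia RNA was read on 6 Affymetrix 3' expression arrays after biotin labelling of cRNA. The deposited values are log2 expression values per probe set; per the submitters' processing notes they were made with RMA and Partek, whose versions and order are not given in the sources used here. No detection calls or scanner files were used here. The table has 45101 probe sets, and the 64 controls of the array were dropped. The platform annotation gave 34945 probe sets 1 symbol, 932 several and 9160 none, and 34741 were matched by Entrez identifier to RefSeq names of GRCm38.p6. With 3 arrays a group, the number of arrays limits the precision.

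Groups were compared by linear models with moderated variances (limma 3.58.1, R 4.3.3), with a group term and every probe set kept. Tests were two-sided, with p-values adjusted by Benjamini-Hochberg and called at 0.05, over 45037 probe sets for the members, and over 18193 genes (the probe set with the highest mean) for other genes. SE and 95% intervals are moderated. The fit was tested on simulated data. Members and lists were chosen with earlier results of these data known. Named genes are the members, up to 4 called genes with the smallest p per list (or the 1 with the smallest p), 5 measured neighbours on each side of Dynlt3 and the 5 genes most like it. Same-numbered replicates had correlated deviations of -0.05, -0.07 and 0.03 and were not treated as pairs. The alternatives tried were a quantile normalization, centring on medians, keeping only probe sets above the median in at least 3 arrays, an intensity trend, no moderation, a replicate block, the mean of all probe sets of a gene and leaving out each array. The genotype labels were not checked on the targeted gene, which is not reported here.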

Additional observations from a re-analysis of the deposited data

How the results depend on the processing

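The Dynlt3 difference was 5.28 to 5.45 under the 13 alternatives, and 5.28 to 5.43 with 1 array left out. Its direction and call were kept in all of them, but the family was chosen on this difference, so that supports nothing further. When dim probe sets were left out, Dynlt3 stayed in only through its AID-/- arrays. With no variance moderation, 2363 probe sets, 1635 genes and 11 pathway genes were called, against 6589, 3371 and 17, and the calls lost included Dynlt1f (adjusted p = 0.075), Bmf (0.105), Bcl2l11 (0.137), Rab11fip3 (0.0949), Wdr60 (0.11), Lyz2 (0.189) and the Dynll1 probe sets 1448682_at (0.0501) and 1417339_a_at (0.0852). With 1 array left out, 4307 to 6109 probe sets, 2142 to 3214 genes, 10 to 16 pathway genes and 5 to 8 member probe sets were called, and the lowest counts of probe sets and genes came without AID+/+ replicate 3. The count of member probe sets was 5 when AID-/- replicate 3 or either of AID+/+ replicates 2 and 3 was left out. It was 9 under median centring, without dim probe sets and with an intensity trend, where the Dynll1 probe set 1456125_a_at passed (adjusted p = 0.0477, 0.0454 and 0.0199). Under quantile normalization the calls at the Dynll1 probe set 1417339_a_at (adjusted p = 0.0547) and at Dynlrb1 (adjusted p = 0.053) were lost, as was that of Capza2 (adjusted p = 0.0592), and under median centring that of Kntc1 (adjusted p = 0.068). With the replicate number as a block, 5369 probe sets, 2696 genes, 12 pathway genes and 6 member probe sets were called, without the Dynll1 probe set 1417339_a_at and Dynlrb1 (adjusted p = 0.109 and 0.107), and without Bcl2l11, Capza2, Kntc1 and Wdr60 (adjusted p of 0.0521 to 0.121); the numbers did not pair the arrays. With probe sets averaged, Bmf (0.26, adjusted p = 0.111) and Rab11fip3 (-0.33, adjusted p = 0.103) were not called. Capza2, Wdr60 and Kntc1, called in the limma fit over genes, were not called in that over probe sets (adjusted p = 0.0572, 0.0508 and 0.0646 at the same probe sets). The sign turned only at neighbours that were not called: with 1 array left out, Lancl3 ranged over -0.026 to 0.070, H2al3 over -0.12 to 0.062 and H2ap over -0.14 to 0.020, and H2ap was at 0.030 with probe sets averaged. The cause of these changes was not tested.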

Other observations

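Of 617 X-linked genes, 6 were at least 3 log2 units higher in AID-/- leukaemia, a set named after the values were seen: Ubqln2 (7.44), Dynlt3 (5.34), Armcx3 (4.89), Pls3 (4.77), Rpgr (3.58) and Taf9b (3.11). Neither the share of all genes past that cut nor the X-linked genes as far down were counted. At their brightest probe sets the autosomal Slc25a24, Smad1, Tmem126a and Retreg1 were 5.12 to 5.81 higher, and Xist differed by -6.71. The second probe sets of Slc25a24 and Retreg1 were only 2.99 and 1.98 higher.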
